A study of Homo sapiens with 9 samples.

Results

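Cal-27 cells, a wild-type human line of tongue squamous carcinoma, were compared after co-culture for 48 h with vesicles labelled exosomes of cancer-associated fibroblasts, here CAF exosomes, and as an untreated control group for which the labels give no time. Cells of every group grew in high-glucose DMEM with fetal bovine serum. Each group held 3 libraries of poly(A) RNA, and another 3 libraries of cells given exosomes labelled hOMF (hMOF in the treatment field) entered the fit and a direct contrast. Every gene with enough counts was kept, which left 12470 of the 16366 listed genes. They were then read by gene family, in 130 families and functional groups that overlap in part. The labels do not say whether the replicates were separate cultures, so p-values measure the spread between libraries only. The labels give no fibroblast donors, exosome dose or vesicle preparation, and Cal-27 is a single line.

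Exosomes are vesicles that bud into endosomes and are released when these fuse with the plasma membrane, and they carry proteins, lipids and RNA from one cell to another. Cancer-associated fibroblasts are the fibroblasts of a tumour's stroma, and their vesicles can be taken up by carcinoma cells. RNA sequencing of the recipient cells reports the level of each messenger RNA relative to all others, so that in bulk samples fewer cells expressing a gene and less RNA per cell cannot be told apart.

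Estimated counts summed to 11192908 to 12074497 in the CAF exosome libraries and 11277837 to 12605427 in the control libraries. All 18 squamous markers were tested, and their summed TPM (a level corrected for transcript length) was 7936 to 8216 with CAF exosomes and 5556 to 7086 in control. Of 20 fibroblast markers 19 were in the table and 12 had enough counts to be tested. The summed TPM of those in the table was 544 to 622 with CAF exosomes and 486 to 533 in control. VIM, named after its value was seen, is in these sums but failed the count filter. Its mean over the 9 libraries was 4.16 TPM, above that of the tested COL6A2 at 2.65 TPM. Endothelial markers summed to 6.59 to 7.75 TPM with CAF exosomes and 8.16 to 11.5 in control. Leukocyte markers summed to 217 to 245 TPM with CAF exosomes and to 226, 238 and 300 TPM in control replicates 1 to 3. Control replicate 3 stood apart from the other controls. It had counts in 14786 genes, against 14289 and 14225, and lay at 25.1 on the first principal component of the 9 libraries, against 15.8 and 18.2. It was also the control farthest from the CAF exosome libraries in the mean level of replication, mitosis, keratin and squamous marker genes. Genes in which it lay apart, named here after their values were seen, follow: CORO1A, a coronin of leukocytes, was at 17.2 CPM there and at 3.27 and 4.61 CPM in control replicates 1 and 2, and the receptor tyrosine kinase gene RET at 14.9 CPM and at 1.36 and 0.903 CPM. CPM are counts relative to the library total, scaled between libraries. The part of this library in the results was not tested beyond leaving it out.

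A gene was called when its Benjamini-Hochberg adjusted p in edgeR's quasi-likelihood test was under 0.05. By that rule 18.2% of tested genes were called with CAF exosomes against control, 9.51% higher and 8.64% lower, and these shares are the background for every family below. The CAF exosome and control libraries did not overlap in CPM in 36.2% of all tested genes, called or not. Of all called genes 75.4% changed by less than 1.5 times, and the median log2 fold change over all tested genes was -0.005. The split between 1186 higher and 1078 lower calls depended on the processing: it was 1425 and 832 with library totals and no TMM factors, 1212 and 681 with limma on log2(FPKM + 1), and 1238 and 680 with a pseudocount of 0.1. Correction for GC content and length turned it to 1425 higher and 1651 lower. Leaving out control replicate 3 gave 742 and 700, control replicate 2 gave 756 and 633, CAF exosome replicate 3 gave 798 and 545, and CAF exosome replicate 1 gave 879 and 708. Family medians are given beside counts. Where a family below had no call in one direction by edgeR, DESeq2 and both limma fits had none there either, except for the ribosomal proteins.

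The direction of the calls differed with expression level. Of 2428 genes at a mean of 1 to 5 TPM, 221 were called higher and 97 lower. Of 3709 genes at 20 to 100 TPM, 375 were higher and 446 lower, and of 1101 genes at 100 to 500 TPM, 104 were higher and 136 lower. The median log2 fold change ran from 0.11 under 1 TPM through 0.07, -0.00, -0.03 and -0.04 to -0.06 at 500 TPM and over. Low genes needed larger changes to be called: the median of the higher calls was 1.197 under 1 TPM and 0.32 at 100 to 500 TPM, and the median SE over tested genes was 0.34 and 0.08 in those bands. Without TMM factors the higher calls outnumbered the lower ones at every level, with 454 and 335 at 20 to 100 TPM and 133 and 110 at 100 to 500 TPM. Both limma fits gave the same sign there, with 394 and 280 at 20 to 100 TPM for a pseudocount of 1. At that level there were 369 higher and 350 lower calls with no filter on low counts, and 431 and 420 when only genes with a mean of at least 5 TPM were tested. At 1 to 5 TPM the higher calls became 137, 186, 127, 196, 133 and 138 with CAF exosome replicates 1, 2 and 3 and then control replicates 1, 2 and 3 left out in turn, and the lower calls 71, 63, 48, 97, 66 and 61. At 20 to 100 TPM the same fits gave 290, 323, 256, 332, 248 and 232 higher and 275, 385, 224, 375, 238 and 285 lower calls, so the higher calls were the more frequent there in the first, the third and the fifth of these fits. At 100 to 500 TPM they were so without CAF exosome replicate 1, with 94 and 82.

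**Figure D1:**
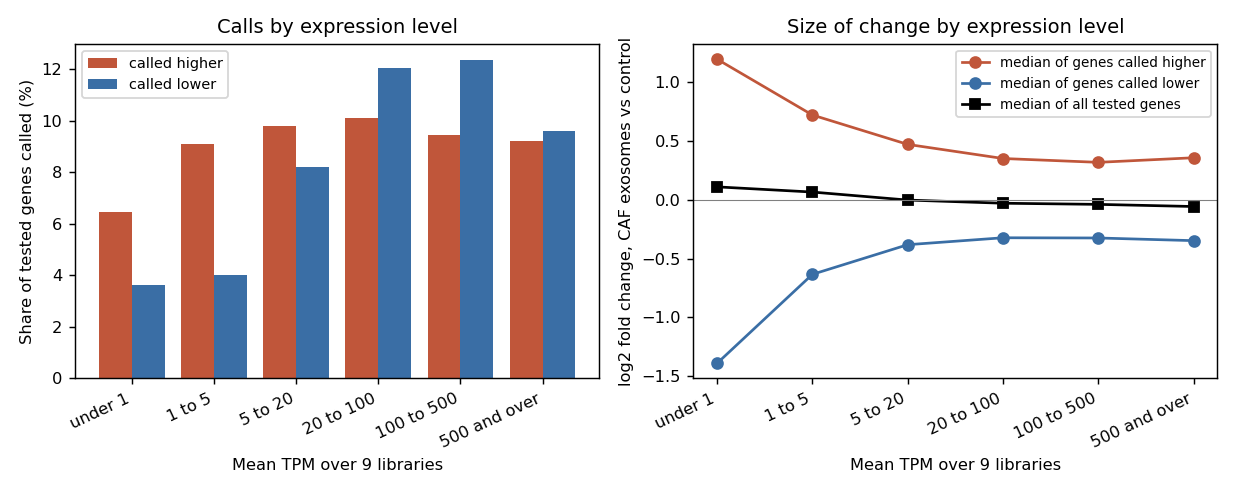
Left: share of tested genes called higher or lower with CAF exosomes against control (percent) in 6 bands of mean TPM over 9 libraries. Right: median log2 fold change of the genes called higher, of those called lower and of all tested genes in the same bands. Below 5 TPM the higher calls are the more frequent, between 20 and 500 TPM the lower ones (the reverse without TMM factors and with limma, and at 20 to 100 TPM with no filter or a minimum of 5 TPM), and the called changes shrink as the level rises.

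The genes with the smallest p in each band came from different functions. Under 1 TPM, KCND3, a voltage-gated potassium channel gene, had 1.87, 2.89 and 1.75 CPM with CAF exosomes and 6.18, 4.70 and 5.03 CPM in control. The groups did not overlap, and the log2 change was -1.28 (SE 0.23, adjusted p = 0.00139). At 5 to 20 TPM, SEMA3F, a secreted guidance factor of the semaphorin family, was at 42.5, 37.4 and 46.1 CPM against 21.4, 22.3 and 21.4 CPM. Every CAF exosome library held more than 1.5 times any control library, and the log2 change was 0.95 (SE 0.09, adjusted p = 2.1e-05). At 20 to 100 TPM, SSC4D, a scavenger receptor cysteine-rich protein gene, was at 60.6, 60.3 and 63.7 CPM against 29, 24.5 and 20.3 CPM, a log2 change of 1.33 (SE 0.11, adjusted p = 8.1e-06). RHOB, an endosomal small GTPase gene, was at 83.9, 97.4 and 93.2 CPM against 164, 168 and 151.1 CPM, a log2 change of -0.81 (SE 0.07, adjusted p = 1.3e-05). At 100 to 500 TPM, PPIF, the mitochondrial cyclophilin gene, averaged 122 ± 2.68 CPM against 204 ± 4.59 CPM (SD, n = 3), and its log2 change was -0.74 (SE 0.07).

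Many families of membrane and matrix proteins had more higher than lower calls. In 8 of them, grouped after their values were seen (solute carriers, ABC transporters, TMEM genes, ion channels, G protein-coupled receptors, receptor tyrosine kinases, collagens and matrix proteins, and semaphorins with their receptors), 149 of 680 tested genes were higher (21.9%) and 29 lower (4.26%), against 9.51% and 8.64% of all tested genes. Since the families were picked by their values, this is a description. Not all members lie at the cell surface: the 166 TMEM genes include proteins of lysosomes and mitochondria, and SERPINH1 among the matrix genes acts in the endoplasmic reticulum. Not among them were junction genes with 5 higher and 1 lower of 52, connexins with 0 and 1 of 11, cadherins with 4 and 1 of 40 and metalloproteinases with 6 and 5 of 32. Over the 680 genes the median log2 change was 0.14, and it lay between 0.12 and 0.17 under every alternative. The fit with no filter covered the same 680 genes here, so listed members that failed the filter did not enter. Leaving out CAF exosome replicates 1, 2 and 3 and control replicates 1, 2 and 3 in turn gave 109, 135, 118, 131, 108 and 102 higher ones.

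**Figure D2:**
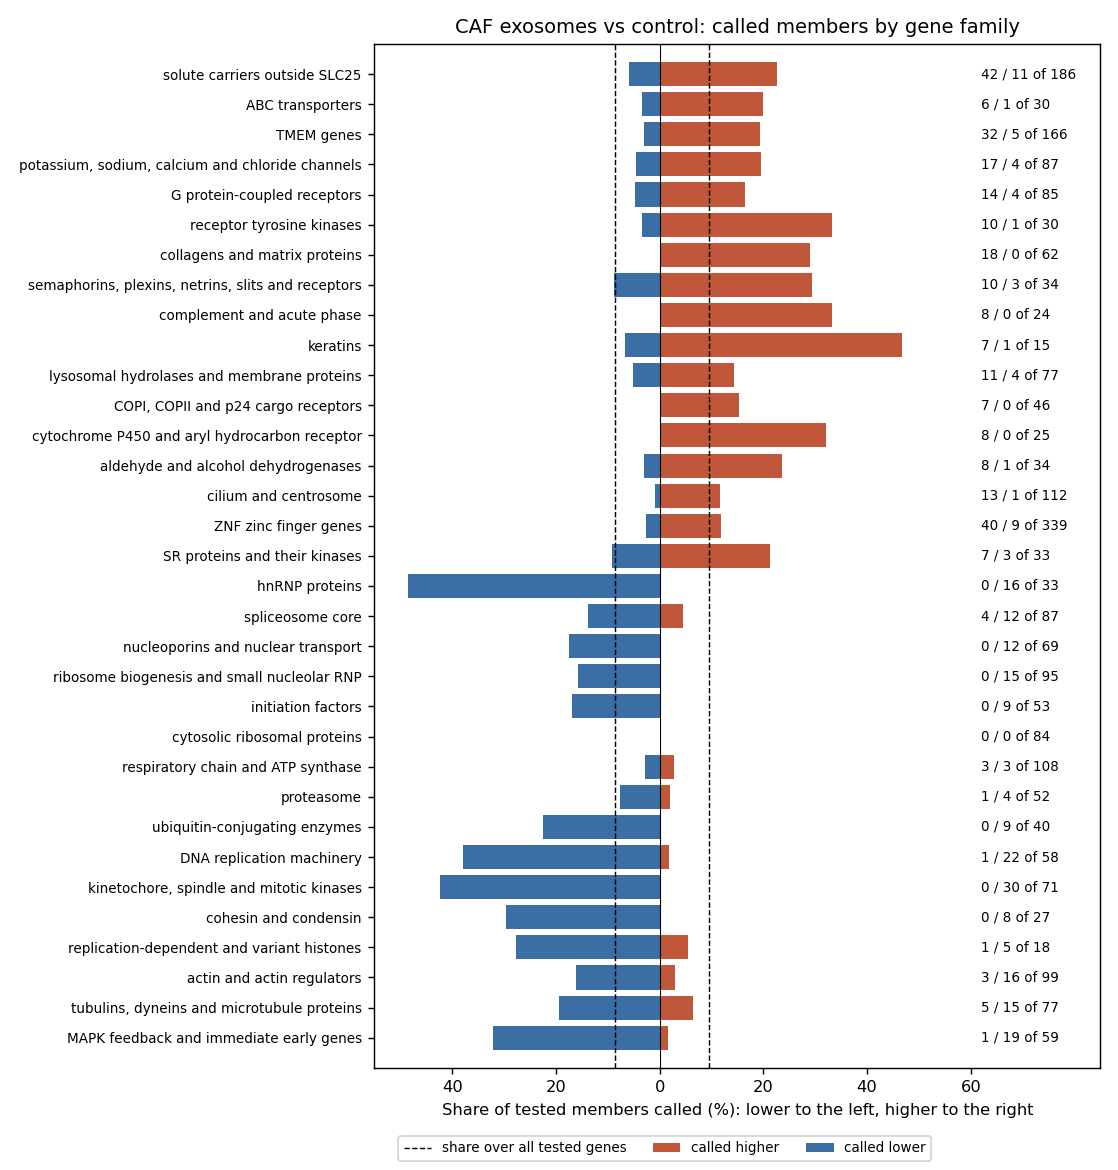
Share of tested members called higher (bars to the right) or lower (bars to the left) with CAF exosomes against control, in percent, for 33 families, with the counts at the right as higher / lower of tested. Dashed lines mark the shares over all tested genes, 9.51% higher and 8.64% lower. Membrane and matrix families stand at the top, RNA-binding, cell cycle and cytoskeletal families at the bottom.

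Solute carriers move nutrients, ions and metabolites across membranes. Outside the mitochondrial SLC25 family, 281 were listed and 186 tested, and 42 rose and 11 fell, with a median of 0.13. SLC29A2, an equilibrative nucleoside transporter gene, was at 245, 246 and 234.8 CPM with CAF exosomes and 192, 185 and 170 CPM in control, a log2 change of 0.41 (SE 0.07, adjusted p = 0.00135). SLC52A1, a riboflavin transporter gene, was at 17.6, 17.02 and 14.7 CPM against 8.82, 7.68 and 7.82 CPM, a log2 change of 1.02 (SE 0.12). The groups were apart in both genes. In the other direction SLC5A3, the myo-inositol transporter gene that responds to osmotic stress, fell by 0.81 on the log2 scale (SE 0.11), and SLCO4A1, an organic anion transporter gene, fell by 0.58 (SE 0.08). The 42 was 30, 37, 38, 37, 30 and 32 with CAF exosome replicates 1, 2 and 3 and control replicates 1, 2 and 3 left out in turn. Of 44 listed mitochondrial SLC25 carriers 40 were tested, and 4 rose and 3 fell.

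TMEM genes share only a predicted membrane-spanning stretch, and many are poorly described. Of 203 listed, 166 were tested, 32 rose and 5 fell, with a median of 0.13. TMEM9, a lysosomal and endosomal membrane protein gene, was at 99.97, 95.5 and 96.1 CPM with CAF exosomes and 77.4, 64.0 and 64.8 CPM in control, a log2 change of 0.50 (SE 0.08, adjusted p = 0.000761). TMEM14C, which carries heme precursors in mitochondria, rose by 0.43 (SE 0.08), and TMEM35B by 0.55 (SE 0.09). TMEM250 fell by 0.39 on the log2 scale (SE 0.09). Without control replicate 3 the 32 became 21. The 5 lower calls became 2, 2, 1, 3, 1 and 3 with CAF exosome replicates 1, 2 and 3 and control replicates 1, 2 and 3 left out in turn.

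Of 87 tested potassium, sodium, calcium and chloride channel genes 17 rose and 4 fell (median 0.11). SCNN1A, the alpha subunit of the epithelial sodium channel, was at 433, 395 and 441 CPM with CAF exosomes and 275, 320 and 258 CPM in control, a log2 change of 0.57 (SE 0.08, adjusted p = 0.000367). ANO9, a calcium-activated scramblase of the anoctamin family, rose by 0.66 (SE 0.10). The 17 became 11 without control replicate 2. With no filter, over 177 channel genes, the median was 0.03.

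Of 85 tested G protein-coupled receptors, from 197 listed, 14 rose and 4 fell (median 0.15). HCAR2, the receptor for niacin and ketone bodies, was at 23.8, 20.8 and 25.1 CPM against 14.6, 13.9 and 13.1 CPM, a log2 change of 0.75 (SE 0.11). The groups did not overlap. Leaving out CAF exosome replicate 1 gave 9, control replicate 3 gave 8, and it was 9 when only genes with a mean of at least 5 TPM were tested. With no filter on low counts, over all 197, 11 rose and 7 fell and the median was 0.01, and with the minimum of 5 TPM the median was 0.08.

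Receptor tyrosine kinases bind growth factors outside the cell and phosphorylate signalling proteins inside it. Of 30 tested, 10 rose and 1 fell, with a median of 0.16. FGFR3, a fibroblast growth factor receptor, was at 67.2, 67.5 and 74.3 CPM with CAF exosomes and 37.3, 44.99 and 39.8 CPM in control, a log2 change of 0.78 (SE 0.08, adjusted p = 4.1e-05). EPHA1, an ephrin receptor, rose by 0.52 (SE 0.07), PTK7, a Wnt coreceptor with an inactive kinase, by 0.39 (SE 0.07), and AXL, the GAS6 receptor, by 0.31. The one lower call was RET, which rested on control replicate 3: with 0.892, 1.02 and 0.751 CPM against 1.36, 0.903 and 14.9 CPM the groups overlapped, and the call was lost when control replicate 3 or any one of the CAF exosome libraries was left out, and with limma, while DESeq2 gave it no adjusted p. Of 36 tested ligands of these receptors 7 rose and 5 fell. PDGFA, a platelet-derived growth factor chain, was at 50.2, 47.8 and 49.1 CPM against 28.7, 25.6 and 26.8 CPM, and HBEGF, an EGF receptor ligand, fell by 0.52 on the log2 scale.

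Collagens and matrix proteins form the scaffold outside the cell. Of 101 listed, 62 were tested, 18 rose and 0 fell (29 and 4 at an unadjusted p under 0.05), with a median of 0.18. EFEMP1, the fibulin-3 gene, was at 110, 116 and 108 CPM with CAF exosomes and 66.7, 65.6 and 63.3 CPM in control. That is a log2 change of 0.77 (SE 0.07, adjusted p = 1.3e-05). EFEMP2, the fibulin-4 gene, was at 15.7, 14.6 and 16.9 CPM against 7.82, 7.23 and 5.03 CPM, a log2 change of 1.24 (SE 0.15). SERPINH1, the collagen chaperone of the endoplasmic reticulum, rose by 0.40 (SE 0.08). The 18 was 12, 19, 11, 13, 15 and 10 with CAF exosome replicates 1, 2 and 3 and control replicates 1, 2 and 3 left out in turn, and 1 or 2 lower calls appeared in the first, the fifth and the last of these fits. Of the 12 tested fibroblast markers, some of which are members here, 6 rose and 1 fell. The part of fibroblast RNA carried by the vesicles was not tested.

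Semaphorins and netrins are guidance cues that act through plexins, neuropilins and UNC5 receptors. Of 34 tested, 10 rose and 3 fell (median 0.17). The higher share was 29.4%, against 9.51% of all tested genes, while the lower share, 8.82%, was near the 8.64% of all. Besides SEMA3F, SEMA4A rose by 0.59 (SE 0.09), from 18.3 ± 0.847 to 27.5 ± 1.62 CPM (SD, n = 3). SEMA7A, a membrane-anchored semaphorin, was at 32.2, 33.2 and 32.4 CPM against 39.8, 46.2 and 43.8 CPM, a log2 change of -0.41 (SE 0.09). The 10 became 6, 9, 5, 7, 6 and 5 with CAF exosome replicates 1, 2 and 3 and control replicates 1, 2 and 3 left out in turn.

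Families of the secretory route varied. Genes of folding and redox control in the endoplasmic reticulum had 6 higher and 2 lower calls of 46, those of translocation and N-glycan assembly 7 and 2 of 74, and Golgi glycosyltransferases and sulfotransferases 12 and 6 of 97. Among COPI and COPII coats and p24 cargo receptors, which load and bud transport vesicles, 7 of 46 rose and 0 fell (11 and 3 unadjusted), yet the median was 0.01. TMED4, a p24 cargo receptor, was at 193, 185 and 177 CPM with CAF exosomes and 146, 154 and 141 CPM in control, a log2 change of 0.33 (SE 0.07). Leaving out CAF exosome replicate 1 or 3 gave 4, and control replicate 2 or 3 gave 3. Of 77 lysosomal hydrolases and membrane proteins 11 rose and 4 fell (median 0.11). FUCA1, the lysosomal fucosidase, was at 29.4, 27.7 and 28.6 CPM against 23.2, 17.8 and 16.4 CPM (log2 change 0.58, SE 0.11). The 11 became 6 without control replicate 3. RAB GTPases, with 2 higher and 4 lower of 50, and SNAREs and tethers, with 6 higher and 7 lower of 115, were near or under the background in both directions.

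Xenobiotic and aldehyde enzymes had more higher calls than the background. Of 25 tested cytochrome P450 and aryl hydrocarbon receptor genes 8 rose and 0 fell (9 and 0 unadjusted, median 0.32; 4 of 13 and median 0.19 with a mean of at least 5 TPM), and of 34 aldehyde and alcohol dehydrogenases 8 rose and 1 fell (median 0.11). ALDH3B2, an aldehyde dehydrogenase of lipid droplets, was at 75.8, 71.8 and 79.8 CPM against 58.3, 50.4 and 47.8 CPM, a log2 change of 0.54 (SE 0.09, adjusted p = 0.00135). ALDH7A1, an enzyme of lysine breakdown, rose by 0.36 (SE 0.06). The lower call was RDH10, which oxidises retinol to retinal, at 15.4, 15.2 and 12.1 CPM against 23.3, 24.8 and 25.2 CPM (-0.78, SE 0.10). Each left-out library took the 8 dehydrogenase calls to 5, except CAF exosome replicate 3, which took them to 6.

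Genes that handle RNA in the nucleus leaned the other way. In 6 families grouped after their values were seen (hnRNP proteins, core spliceosome, DEAD and DEAH box helicases, cleavage, polyadenylation and decay, nucleoporins, and ribosome biogenesis), 5 of 402 tested genes rose (1.24%) and 71 fell (17.7%), with a median of -0.13. These too were picked by their values, and RNA polymerase subunits, with 0 higher and 4 lower of 33, and Mediator subunits, with 0 and 2 of 33, were not among them. SR proteins and their kinases, also of RNA processing, were left out as well and went the other way, with 7 higher and 3 lower of 33. The median over the 402 genes lay between -0.15 and -0.09 under every alternative, with no gene added in the fit with no filter. The 71 was 37, 53, 27, 72, 39 and 27 with CAF exosome replicates 1, 2 and 3 and control replicates 1, 2 and 3 left out in turn, 47 without TMM factors, and 38 or 36 with limma. It was 115 after correction for GC content and length.

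The hnRNP proteins coat nascent transcripts and influence splicing, export and stability. All 33 listed were tested, and 16 fell and 0 rose (18 and 1 at an unadjusted p under 0.05, 17 and 0 with DESeq2), with a median of -0.21. HNRNPM was at 144, 156 and 138 CPM with CAF exosomes and 180, 195 and 226 CPM in control, a log2 change of -0.46 (SE 0.08, adjusted p = 0.00167). EWSR1, an RNA-binding protein of transcription and splicing, was at 166, 163 and 184 CPM against 206, 226 and 228 CPM (-0.37, SE 0.07). The groups did not overlap in either gene. Summed over the family, TPM were 3743, 3695 and 3688 against 4006, 3980 and 4309. The 16 became 9, 10, 9, 12, 11 and 8 with CAF exosome replicates 1, 2 and 3 and control replicates 1, 2 and 3 left out in turn, while the median stayed between -0.24 and -0.18 in every fit.

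SR proteins, which also bind exons but mostly favour their inclusion, did not lean lower. Together with their kinases and related serine- and arginine-rich proteins, 7 of 33 rose and 3 fell, with a median of 0.13. Those are 21.2% higher and 9.09% lower, the second share near the 8.64% of all tested genes. CLK4, a kinase that phosphorylates SR proteins, was at 19.3, 15.1 and 13.5 CPM with CAF exosomes and 12.6, 8.22 and 8.37 CPM in control (0.71, SE 0.16, adjusted p = 0.00751). SRSF3, an SR protein also active in export, was at 109, 112 and 103 CPM against 132, 130 and 139 CPM (-0.31, SE 0.07, adjusted p = 0.00481). The 7 became 1 without control replicate 2 and 3 without control replicate 3, and it was 11 without TMM factors. The median was 0.08 to 0.16 in every fit. Whether SR and hnRNP genes differ was not tested as a set.

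The core spliceosome removes introns. Of 87 tested members 4 rose and 12 fell, with a median of -0.13. PRPF19, a ubiquitin ligase of the catalytic spliceosome, was at 106, 111 and 112 CPM against 137, 137 and 150 CPM (-0.37, SE 0.07, adjusted p = 0.00337), while PRPF39, of the U1 particle, was at 30.8, 23.3 and 27.04 CPM against 21.4, 17.6 and 17.9 CPM (0.51, SE 0.11). The 12 was 5, 10, 2, 15, 5 and 2 with CAF exosome replicates 1, 2 and 3 and control replicates 1, 2 and 3 left out in turn, 5 with either limma fit and 19 after correction for GC content and length.

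Nucleoporins and transport factors carry cargo through the nuclear envelope, driven by the Ran GTPase. Of 69 tested, 12 fell and 0 rose (30 and 1 at an unadjusted p under 0.05), with a median of -0.14. KPNA2, an importin alpha, was at 67.3, 68.9 and 67.3 CPM with CAF exosomes and 91.2, 96.0 and 106 CPM in control (-0.53, SE 0.08, adjusted p = 0.000414). RCC1, the exchange factor for Ran, was at 60.4, 61.2 and 67.8 CPM against 82.8, 80.8 and 92.2 CPM (-0.43, SE 0.08), and RANGAP1, which activates Ran's hydrolysis, fell by 0.42 on the log2 scale (SE 0.08). The 12 became 6, 7, 3, 12, 3 and 4 with CAF exosome replicates 1, 2 and 3 and control replicates 1, 2 and 3 left out in turn, and 4 without TMM factors or with limma. After correction for GC content and length it was 22. Of 95 tested genes of ribosome biogenesis 15 fell and 0 rose (32 and 2 unadjusted, median -0.15), among them NCL, nucleolin, by 0.29, and TCOF1, treacle, by 0.51. The 15 became 8 or 5 when CAF exosome replicate 1 or 3 was left out, and 9 or 4 when control replicate 2 or 3 was.

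**Figure D3:**
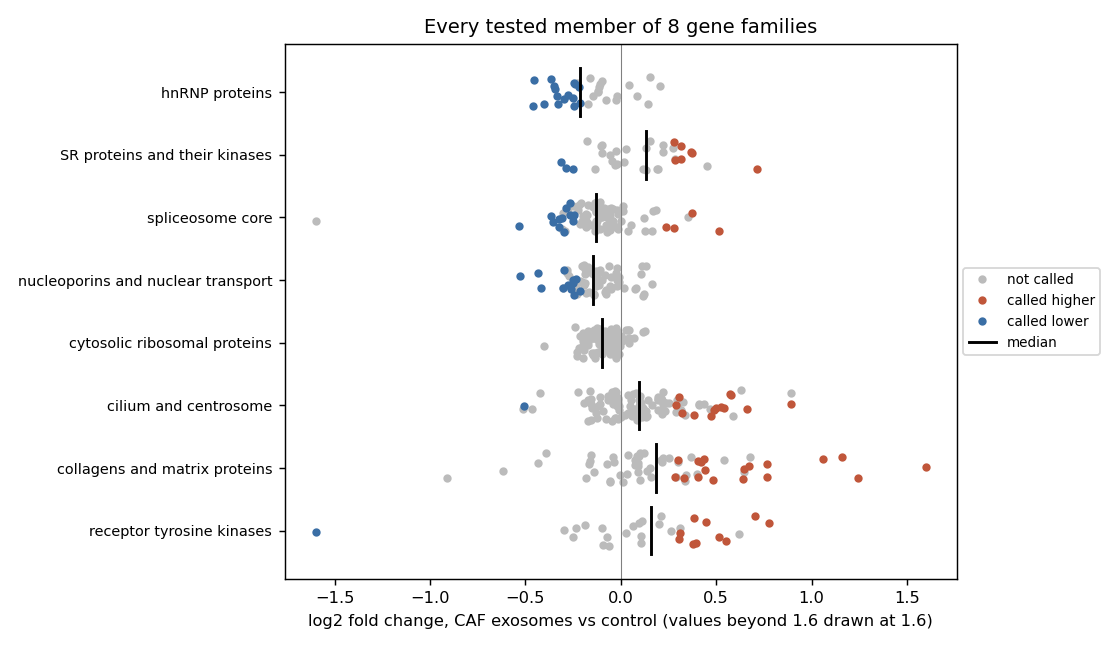
Log2 fold change with CAF exosomes against control for every tested member of 8 families, 1 point per gene, coloured by call, with the family median as a black line. The hnRNP members lie mostly left of 0 (median -0.21), the SR members on both sides (median 0.13), the ribosomal proteins close together (median -0.10, no call) and the matrix proteins mostly right (median 0.18).

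Replication and mitosis genes were often called lower. Several elements were searched in the promoters of every family, and for each group an element known from such promoters is shown. These are the E2F site (searched as TTTCGCGC, TTTGGCGC or TTTCCCGC) and the cell cycle homology region, CHR (searched as TTTGAA), each on both strands and with no overlap between them. For each group 3 promoter stretches show its element in place. RefSeq promoters, 250 bases before to 50 after the start on GRCh38.p14, were at hand for 10202 of the tested genes. An E2F site was in 21 of 50 promoters of the replication machinery (42.0%) and in 4.63% of all tested genes' promoters. CHR was in 30 of 58 promoters of kinetochore, spindle and mitotic kinase genes (51.7%) and in 9.67% of all. The CCAAT box was the more frequent in both groups, with 29 of 50 (58.0%) and 37 of 58 promoters (63.8%). It was also in 36.6% of all tested genes' promoters. Each stretch below is on the minus strand unless said, reads 5′ to 3′ along the gene, holds 60 bases and has the element in capitals. They end at the base before the start, except that of MCM3, which runs from 194 to 135 bases before it. They belong to the called lower members of smallest p with the element wholly before the start; MCM3, POLE, ZWINT and ANLN were named by that choice after their values were seen.
PCNA, chr20:5126623-5126682: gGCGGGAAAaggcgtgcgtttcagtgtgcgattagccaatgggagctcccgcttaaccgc
MCM3, chr6:52284877-52284936: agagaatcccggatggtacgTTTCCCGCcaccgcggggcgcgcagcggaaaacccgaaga
POLE, chr12:132687343-132687402: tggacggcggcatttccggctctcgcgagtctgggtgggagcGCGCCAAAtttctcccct
MKI67, chr10:128126424-128126483: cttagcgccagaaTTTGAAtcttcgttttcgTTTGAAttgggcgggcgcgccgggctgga
ZWINT, chr10:56361260-56361319: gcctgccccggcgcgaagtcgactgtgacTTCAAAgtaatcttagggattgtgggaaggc
ANLN, chr7:36389802-36389861, plus strand: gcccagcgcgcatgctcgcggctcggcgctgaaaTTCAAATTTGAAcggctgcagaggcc

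The E2F letters were on the gene's own strand in MCM3 and on the opposite strand in PCNA and POLE, and CHR occurred more than once in MKI67 and ANLN. Among replication genes the E2F site was in 11 of 19 promoters of members called lower (57.9%) and 10 of 31 of the others (32.3%). Among kinetochore, spindle and mitotic kinase genes CHR was in 17 of 24 promoters of members called lower (70.8%) and 13 of 34 of the others (38.2%). These shares describe letters in a window and were not tested.

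Of 58 genes of the replication machinery 22 fell and 1 rose, with a median of -0.27. PCNA, the sliding clamp of the polymerases, was at 42.5, 54.5 and 42.1 CPM with CAF exosomes and 64.7, 71.1 and 88.8 CPM in control (-0.69, SE 0.12, adjusted p = 0.00103). CDC6, which loads the MCM helicase, was at 25.8, 25.8 and 22.9 CPM against 37.9, 39.4 and 42.2 CPM (-0.68, SE 0.10). FEN1, the flap endonuclease, fell by 0.74 on the log2 scale (SE 0.10), MCM3, a helicase subunit, by 0.49, and POLE, the leading-strand polymerase, by 0.37. The 22 was 14, 19, 14, 27, 17 and 12 with CAF exosome replicates 1, 2 and 3 and control replicates 1, 2 and 3 left out in turn, and 15 or 14 with limma. The mean level of the family was 0.00, 0.12 and 0.28 in control replicates 1 to 3 and -0.18, -0.08 and -0.14 in the CAF exosome libraries, as log2 deviations from each gene's mean over the 6 libraries, so that the control libraries differed among themselves by 0.28.

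Of 71 kinetochore, spindle and mitotic kinase genes 30 fell and 0 rose (46 and 0 unadjusted), with a median of -0.31. The list is broader than its name and also holds other genes of dividing cells, such as MYBL2, MKI67 and ANLN. MYBL2, a transcription factor of the mitotic programme, was at 44.1, 60.1 and 60.9 CPM with CAF exosomes and 80.9, 100.3 and 102 CPM in control (-0.78, SE 0.11, adjusted p = 0.000325). AURKB, a kinase of chromosome segregation, was at 22.4, 27.1 and 25.04 CPM against 29.6, 36.04 and 35.97 CPM (-0.45, SE 0.10). ZWINT, a kinetochore protein, fell by 0.55 on the log2 scale (SE 0.10) and ANLN, the cytokinesis scaffold anillin, by 0.37 (SE 0.08). The 30 was 23, 31, 17, 30, 24 and 18 with CAF exosome replicates 1, 2 and 3 and control replicates 1, 2 and 3 left out in turn. Of 27 cohesin and condensin genes 8 fell and 0 rose (14 and 0 unadjusted), among them CDCA5, sororin, from 73.6 ± 5.91 to 47.6 ± 1.83 CPM (SD, n = 3), and SMC1A, a cohesin ring subunit, by 0.44. The 8 became 5 when replicate 2 of either group was left out, and 4 or 3 when replicate 3 of the CAF exosome or the control group was.

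Of 74 listed histone genes 18 had enough counts. Most replication-dependent histone messages are known to lack the poly(A) tail by which these libraries were selected. Of the 18 tested, 5 fell and 1 rose. H2AX, the variant phosphorylated at DNA breaks, was at 19.98, 37.9 and 29.2 CPM with CAF exosomes and 38.6, 46.2 and 55.2 CPM in control (-0.69, SE 0.17, adjusted p = 0.0101), with the nearest libraries of the groups at 37.9 and 38.6 CPM. H2AZ1, another variant, fell by 0.35 (SE 0.08). Leaving out CAF exosome replicate 1 or 3 gave 2 lower calls, and control replicate 1 or 2 gave 3. Of 51 chromatin remodelling subunits 1 rose and 6 fell, and of 51 acetyltransferases and deacetylases 4 rose and 6 fell. Among them SMARCD3, a subunit of the BAF complex, was at 10.8, 15.0 and 12.4 CPM against 5.09, 5.78 and 6.78 CPM (1.11, SE 0.16), and CREBBP, a coactivator acetyltransferase, fell by 0.41 on the log2 scale (SE 0.07).

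Transcription factors split by family. ZNF zinc finger genes, many of them KRAB repressors of low level, had 40 higher and 9 lower calls among 339 tested, from 448 listed, with a median of 0.06. Their higher share, 11.8%, was near the 9.51% of all tested genes, and their lower share was 2.655%, against 8.64%. All genes at 1 to 5 TPM also had more higher than lower calls, and the part of expression level was not tested. ZNF558 was at 39.1, 32.0 and 38.3 CPM with CAF exosomes and 25.9, 24.3 and 24.01 CPM in control (0.56, SE 0.09), and ZNF114 at 38.5, 40.5 and 35.2 CPM against 65.3, 62.8 and 66.4 CPM (-0.77, SE 0.08, adjusted p = 2.1e-05). Similar zinc finger genes can share reads, so single members are uncertain. The 40 became 11, 33, 20, 36, 20 and 11 with CAF exosome replicates 1, 2 and 3 and control replicates 1, 2 and 3 left out in turn, and 25 with DESeq2. After correction for GC content and length, 46 rose and 23 fell. AP-1, ATF, CREB, MAF and C/EBP factors leaned lower, with 2 higher and 10 lower of 39 (median -0.10), and KLF, SP and EGR factors had 1 higher and 4 lower of 22 (median -0.24). FOSL1, the AP-1 subunit FRA1, was at 106, 140 and 119 CPM against 160, 210 and 220 CPM (-0.69, SE 0.12, adjusted p = 0.00131). KLF6, a zinc finger factor of the early response, fell by 0.61 on the log2 scale (SE 0.08). The 10 lower AP-1 group calls were 8 to 10 with any library left out.

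Genes that limit or report MAP kinase signalling fell with little dependence on single libraries. Of 59 feedback and immediate early genes 1 rose and 19 fell (median -0.23), and the 19 was between 18 and 20 with any of the 6 libraries left out. DUSP10, a phosphatase of p38 and JNK, was at 36.9, 35.2 and 31.9 CPM with CAF exosomes and 63.5, 61.3 and 60.7 CPM in control (-0.84, SE 0.09, adjusted p = 5.0e-05). ERRFI1, an inhibitor of the EGF receptor kinase, was at 202, 166 and 184 CPM against 268, 271 and 247 CPM (-0.51, SE 0.08). In the PI3K, AKT and mTOR pathway 2 of 68 rose and 10 fell (median -0.07), among them IRS2, an insulin receptor substrate, by 0.65, and the 10 became 5 without CAF exosome replicate 3 or control replicate 2. The MAPK cascade itself had 6 higher and 10 lower of 74. That is 8.11% and 13.5%, against 9.51% and 8.64% of all tested genes.

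In the actin and tubulin systems more members were called lower than higher. Of 99 actin genes and regulators 3 rose and 16 fell (median -0.09), and of 77 tubulins, dyneins and microtubule proteins 5 rose and 15 fell (median -0.07). TUBA1B, an alpha-tubulin, was at 388, 419 and 403 CPM with CAF exosomes and 599, 677 and 696 CPM in control (-0.70, SE 0.09, adjusted p = 0.000137). TUBG2, a gamma-tubulin, moved the other way, at 60.5, 68.5 and 61.6 CPM against 39.9, 43.8 and 34.1 CPM (0.70, SE 0.11). Tubulin genes are near-identical in parts, so reads may be split between them. EZR, the actin linker ezrin, was at 198, 206 and 198 CPM against 246, 268 and 253 CPM (-0.35, SE 0.07). The actin calls include CORO1A, whose call was lost when control replicate 3 or CAF exosome replicate 1 or 3 was left out, and with DESeq2 and limma. The 16 became 8 or 9 when CAF exosome replicate 1 or 3 was left out, and the 15 became 9 when control replicate 2 was. Without TMM factors 14 actin and 13 microtubule genes fell, with limma 10 and 12, and after correction for GC content and length 25 and 23.

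Cilium and centrosome genes, which use the same tubulin building blocks, had more higher than lower calls. Of 112 tested 13 rose (11.6%, near the 9.51% of all tested genes) and 1 fell (0.893%, against 8.64%), with a median of 0.10. IFT43, of the retrograde transport complex, was at 16.7, 20.7 and 20.6 CPM against 12.6, 14.3 and 13.1 CPM (0.54, SE 0.12). KIF3C, a kinesin-2 motor, was the lower call (-0.51, SE 0.08). Leaving out replicate 3 of either group gave 8, and control replicate 2 gave 6. Keratins, the intermediate filaments of epithelium, had 7 higher and 1 lower of 15 (median 0.34), and their summed TPM was 6375, 6748 and 6591 against 5617, 5228 and 4540. Leaving out CAF exosome replicate 2 or control replicate 3 gave 4 higher calls, and CAF exosome replicate 3 gave 3.

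**Figure D4:**
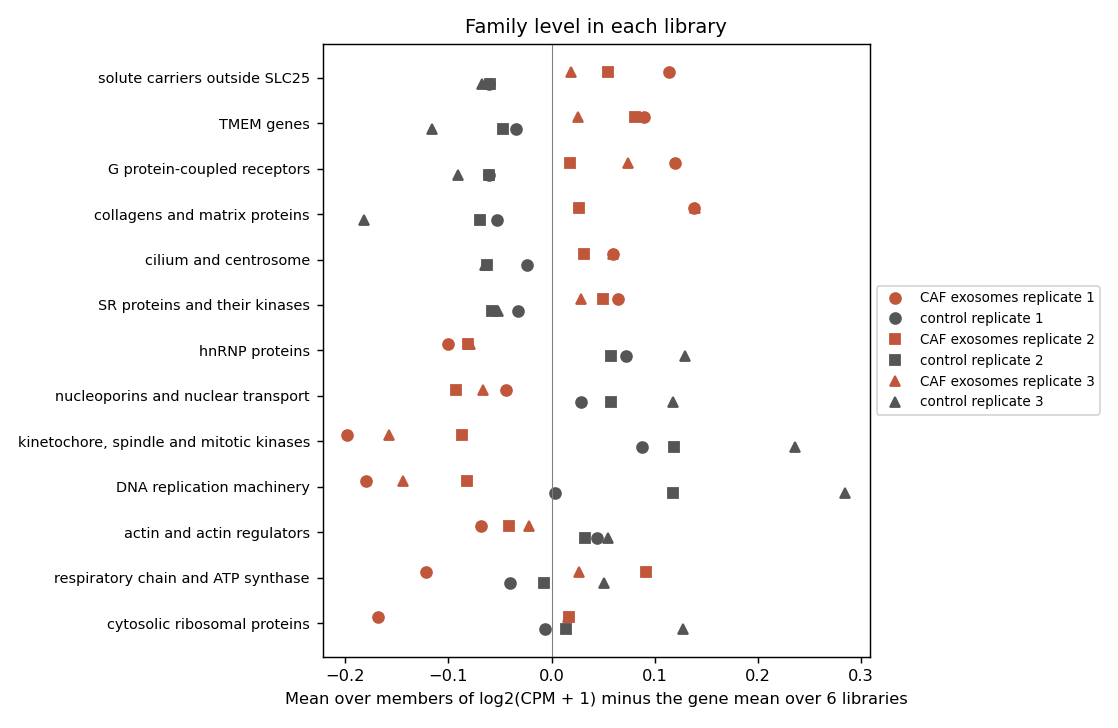
Mean level of 13 families in each of the 6 libraries, as the mean over members of log2(CPM + 1) minus the gene's mean over these libraries, with CAF exosome libraries in red and control libraries in grey and the symbol giving the replicate. In 11 families the groups do not overlap, which also holds for most of the 130 families, among them apoptosis regulators with a difference of -0.04. In ribosomal proteins and the respiratory chain they overlap, with CAF exosome replicate 1 lowest.

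The most abundant machinery had few calls. None of 84 cytosolic ribosomal protein genes was called by edgeR, with 9 lower and 0 higher at an unadjusted p under 0.05. DESeq2 called 4 lower, limma 0, RLE scaling 1 and the fit corrected for GC content and length 7. The median was -0.10, with 74 of the 84 members below 0, and -0.03 without CAF exosome replicate 1 and -0.05 without control replicate 3. RPS2 was at 3835, 4651 and 4553 CPM with CAF exosomes and 4315, 4429 and 4934 CPM in control, so the groups overlapped. Ribosomal protein transcripts summed to 185700, 200900 and 202700 TPM against 195900, 198200 and 212700 TPM. Of 108 respiratory chain and ATP synthase genes 3 rose and 3 fell, with a median of -0.01, and of 79 mitochondrial ribosomal proteins 0 rose and 4 fell (0 and 5 unadjusted). The proteasome had 1 higher and 4 lower of 52. These shares were all under the background of 18.2%.

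Other translation families differed in their calls, though the initiation factor median (-0.09) was near that of the cytosolic ribosomal proteins (-0.10). Of 40 aminoacyl-tRNA synthetases 1 rose and 2 fell, and of 72 genes of tRNA modification 2 rose and 2 fell. Of 53 initiation factor genes 9 fell and 0 rose (14 and 1 unadjusted, median -0.09), among them EIF3B, a scaffold of eIF3, at 424, 460 and 459 CPM against 532, 586 and 559 CPM (-0.32, SE 0.07), and EIF4EBP2, a repressor of cap binding, by 0.46 on the log2 scale. The 9 became 5 without CAF exosome replicate 3 or control replicate 2. In protein turnover, of 40 ubiquitin-conjugating enzymes 9 fell and 0 rose (17 and 1 unadjusted, median -0.14), with UBE2D1 at 25.1, 30.7 and 29.5 CPM against 37.6, 37.04 and 40.1 CPM (-0.43, SE 0.09). That 9 became 4 when CAF exosome replicate 1, CAF exosome replicate 3 or control replicate 1 was left out, and 5 with limma. In contrast the RING, HECT and TRIM ligases that act after them had 13 higher and 10 lower of 167, below the background in both directions.

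Genes called higher together took 84820, 81080 and 80730 TPM with CAF exosomes and 62240, 59680 and 57010 TPM in control, and genes called lower 107700, 109300 and 109500 TPM against 136300, 141800 and 133900 TPM. TPM sum to a fixed total, so gains and losses are linked, and the split follows from the calls. The 10 largest losses summed to -13890 TPM of -28530 TPM over all genes called lower, and the 10 largest gains to 7020 of 22570 TPM. FTH1, the ferritin heavy chain, was at 10510, 11310 and 10730 TPM against 14250, 14470 and 12910 TPM. MT2A, a metallothionein, had the largest of these losses, -4214 TPM, at 10170, 10290 and 12370 TPM against 15510, 18290 and 11680 TPM, but the groups overlapped and its call was lost without any single library except control replicate 3, and with DESeq2 and limma. Among gains, IFITM3, an interferon-induced membrane protein, was at 5651, 5380 and 5863 TPM against 4368, 4008 and 4075 TPM. FXYD3, a regulator of the sodium pump, was at 1452, 1415 and 1405 TPM against 845, 879 and 809 TPM, and CD9, a tetraspanin common on exosomes, at 1126, 927 and 921 TPM against 639, 570 and 495 TPM. The groups were apart in these 3 genes. How much of the CD9 transcript came with the vesicles was not tested.

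Against hOMF exosomes few differences were called. Only 2 of 12470 genes, 0.016%, passed in the direct contrast of CAF with hOMF exosomes (947 at an unadjusted p under 0.05, 29 called with DESeq2 and 0 with limma). One was GJB2, connexin 26, at 247, 215.5 and 211 CPM with CAF exosomes, 156, 162 and 151.3 CPM with hOMF exosomes and 239, 211 and 209 CPM in control. It was 0.52 higher on the log2 scale (SE 0.08) with CAF than with hOMF exosomes, and its difference between CAF exosomes and control was 0.03 (edgeR adjusted p = 0.822). The other was ZNF114, 0.51 lower with CAF than with hOMF exosomes (-0.51, SE 0.08). No gene was called when CAF exosome replicate 1 or 2, control replicate 2 or any single hOMF exosome library was left out. Leaving out CAF exosome replicate 3 or control replicate 1 gave 1, and control replicate 3 gave 8. Both exosome groups were set against the same control libraries, so their family counts are given side by side only. With hOMF exosomes 23.2% of tested genes were called against control, 11.8% higher and 11.4% lower: hnRNP genes had 16 lower calls with CAF and 12 with hOMF exosomes, nucleoporins 12 and 22, ribosome biogenesis 15 and 31, and solute carriers 42 higher and 11 lower with CAF and 43 higher and 29 lower with hOMF exosomes.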

How the data were processed

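Poly(A) RNA of 9 Cal-27 libraries was sequenced as paired reads after dUTP marking of the second strand, per the labels' protocols. The authors deposited expected counts, FPKM and TPM per gene and library. Tools named in the submitters' processing notes are Bowtie2 2.2.5 and RSEM 1.2.8, which gives expected counts by sharing reads between similar genes. The notes name a mouse build although every symbol is human, so no coordinates were taken from the deposited table. Nothing says whether strand was used in counting.

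Expected counts were rounded (90.5% to 92.0% of values were whole to within 0.001) and 0 columns were left without a sample. Genes were kept by filterByExpr (minimum count 10, minimum total 15) and fitted with edgeR 4.0.16 (TMM, glmQLFit, glmQLFTest, two-sided, all 9 libraries, group only, 6 residual degrees of freedom). Adjustment ran over 12470 genes, and SE is the fold change over the root of F. limma 3.58.1 on the deposited FPKM and DESeq2 1.42.0 in R 4.3.3 were alternatives, beside RLE scaling, no TMM factors, other filters, 6 libraries only, a replicate block, left-out libraries and a GC content and length correction (values for 99.1% of genes). The deposited TPM gave levels between genes. The fit was tested on simulated data.

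Members and lists were chosen with earlier results of these data known. Patterns that caught unrelated genes were corrected afterwards. In each family the text names called members from those of highest TPM (up to 3) and smallest p (up to 2) per direction, in each band from the 3 of smallest p, and from the 10 largest gains and losses of TPM. Uncharacterised symbols were passed over. Promoters are RefSeq's on GRCh38.p14, matched by gene identifier. Depth of 11185672 to 12779101 counts per library limits the genes of low level.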

Additional observations from a re-analysis of the deposited data

How the results depend on the processing

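With one library left out at a time, 1343 to 2015 genes were called with CAF exosomes against control, 742 to 1087 of them higher and 545 to 928 lower. Lower calls numbered 681 and 680 with limma and 1651, against 1425 higher, after correction for GC content and length. Against hOMF exosomes, where 2 genes were called, the count was 0 without TMM factors and with either limma fit, 29 with DESeq2, 13 after the GC content and length correction, and 0 to 8 with one library left out (leaving out hOMF exosome libraries was chosen after seeing the data). In the fit with the replicate number as a block 1106 genes were higher and 995 lower, and 2 differed between the exosome groups. Deviations of same-numbered CAF exosome and control libraries from their group means correlated at 0.21, 0.00 and -0.00. Those of differently numbered ones correlated at -0.19 to 0.16. With 3 libraries a group, these values cannot tell whether a number stands for a shared culture or batch. Of 130 families 53 had a median log2 change of at least 0.1 in size, and 0 of these changed sign under any of 16 alternatives. Of 81 called genes named in the text 78 kept their call in every alternative that gave them a value, and 0 changed direction. The exceptions were MT2A, RET and CORO1A. Named genes were mostly chosen for a small p or a high level, so their count does not describe all calls. Of all 2264 calls 57.3% were kept without CAF exosome replicate 3 and 58.6% without control replicate 3. With limma on log2(FPKM + 1) 74.4% were kept, and with the GC content and length correction 99.5%. KCND3, RET and CORO1A were not tested with a mean of at least 5 TPM, and DESeq2 gave RET no adjusted p. Depth limits genes under 1 TPM most, where the median SE was 0.34.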
